A study of Mus musculus with 18 samples.

Results

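The 9 genes described here encode regulators of the G1 phase of the cell cycle: the D-type cyclins Ccnd1, Ccnd2 and Ccnd3, the E-type cyclins Ccne1 and Ccne2, the Cip/Kip inhibitors Cdkn1a and Cdkn1b, and the Ink4 inhibitors Cdkn2a and Cdkn2b. They were chosen by their symbols, and all 9 were found among the 55487 genes of the count table. RNA was sequenced from mouse embryonic stem cells (mESCs) of the line ES-E14TG2a and from embryoid bodies (EBs), the aggregates that mESCs form in suspension when the cytokine LIF is withdrawn, at 48 hr and 96 hr. The mESCs were kept in Serum/LIF. IκBα-KO cells are single clones in which CRISPR/Cas9 with a pair of guides cut exon 1 of Nfkbia, the gene of the NF-κB inhibitor IκBα, and IκBα-WT cells are clones that received scrambled guides without a target, so both genotypes went through editing and cloning. There were 3 IκBα-WT clones, 3 IκBα-KO clones and 6 EB libraries at each of the 2 EB stages, 18 libraries in all. Each EB stage held 3 libraries of each genotype. However, the EB columns carry codes (D4, E14, E2, E3, H7 and H9) that the labels do not tie to a genotype. The EBs were therefore compared by stage only, over both genotypes, and the comparison of KO with WT in EBs is not analysed here. In the stage comparisons the spread within a stage includes the difference between genotypes.

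As background, D-type cyclins bind Cdk4 and Cdk6 in response to growth signals, and E-type cyclins bind Cdk2. Both kinases phosphorylate the pocket proteins (Rb1, Rbl1 and Rbl2), which releases E2F factors to transcribe genes of DNA replication. Ink4 inhibitors bind Cdk4 and Cdk6, whereas Cip/Kip inhibitors act on cyclin complexes of Cdk2. mESCs are known for a short G1 phase with abundant cyclin E and low levels of inhibitors, and G1 lengthens as cells leave pluripotency.

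On GRCm38 the genes lie on 4 chromosomes. Cdkn2a (ENSMUSG00000044303, chr4:89274471-89294653, minus strand) and Cdkn2b (ENSMUSG00000073802, chr4:89306299-89311039, minus strand) are neighbours, with 11645 bases between them. Ccne2 (ENSMUSG00000028212) is also on chromosome 4, at chr4:11191351-11204779. Ccnd2 (ENSMUSG00000000184, chr6:127125162-127152193) and Cdkn1b (ENSMUSG00000003031, chr6:134920401-134925513) are on chromosome 6. Ccnd1 (ENSMUSG00000070348, chr7:144929931-144939925) and Ccne1 (ENSMUSG00000002068, chr7:38097984-38107534) are on chromosome 7. Cdkn1a (ENSMUSG00000023067, chr17:29090976-29100727) and Ccnd3 (ENSMUSG00000034165, chr17:47505051-47599691) are on chromosome 17. The exons of 5 genes (Ccnd1, Ccnd2, Ccnd3, Ccne2 and Cdkn1a) share between 273 and 1100 bases with genes on the other strand, and the strand setting of the counting is not given in the sources used here, so reads in these stretches could belong to either gene. The annotation gives Cdkn2a 2 transcripts from separate first exons, which are known to encode p19Arf and p16Ink4a. The deposited counts are per gene, so the transcripts were not told apart.

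The 250 bases before the start are printed for Cdkn2a and Cdkn2b, which differed between genotypes, and for Ccne1 and Cdkn1b, which differed between EB stages, so that a reader can see the DNA from which these transcripts start. They come from RefSeq on GRCm38.p6, in which 6 of the 9 genes matched, with 9 starts between them (Ccnd1, Ccnd2 and Ccne2 had none). Capitals mark E2F motifs (TTTCGCGC, TTTGGCGC, TTTCCCGC or TTTGGCGG), GC boxes (GGGCGG) and CRE motifs (TGACGTCA), searched on both strands. No hits of different motifs shared a base in these 5 windows.
Cdkn2a, upstream start (known for p19Arf), chr4:89294620-89294869, minus strand: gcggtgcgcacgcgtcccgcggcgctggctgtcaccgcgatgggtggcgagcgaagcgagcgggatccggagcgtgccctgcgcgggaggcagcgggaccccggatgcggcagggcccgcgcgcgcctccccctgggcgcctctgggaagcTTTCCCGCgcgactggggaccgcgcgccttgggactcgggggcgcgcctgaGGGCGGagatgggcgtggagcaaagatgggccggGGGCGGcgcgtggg
Cdkn2a, downstream start (known for p16Ink4a), chr4:89282193-89282442, minus strand: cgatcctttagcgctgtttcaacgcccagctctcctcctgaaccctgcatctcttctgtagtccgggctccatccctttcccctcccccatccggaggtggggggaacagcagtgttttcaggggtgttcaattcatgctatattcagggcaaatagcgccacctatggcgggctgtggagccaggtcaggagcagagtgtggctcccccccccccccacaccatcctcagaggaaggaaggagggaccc
Cdkn2b, chr4:89311033-89311282, minus strand: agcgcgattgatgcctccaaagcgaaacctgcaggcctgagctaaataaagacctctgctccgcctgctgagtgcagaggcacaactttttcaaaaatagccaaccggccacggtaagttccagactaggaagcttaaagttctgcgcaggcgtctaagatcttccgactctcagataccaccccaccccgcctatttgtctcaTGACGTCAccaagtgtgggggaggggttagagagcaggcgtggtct
Ccne1, chr7:38107491-38107740, minus strand: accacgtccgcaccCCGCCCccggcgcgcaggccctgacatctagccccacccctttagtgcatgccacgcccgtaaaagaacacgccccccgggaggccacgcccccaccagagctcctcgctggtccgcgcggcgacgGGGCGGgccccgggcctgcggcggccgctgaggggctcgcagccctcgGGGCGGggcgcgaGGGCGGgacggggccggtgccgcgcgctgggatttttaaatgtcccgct
Cdkn1b, chr6:134920151-134920400, plus strand: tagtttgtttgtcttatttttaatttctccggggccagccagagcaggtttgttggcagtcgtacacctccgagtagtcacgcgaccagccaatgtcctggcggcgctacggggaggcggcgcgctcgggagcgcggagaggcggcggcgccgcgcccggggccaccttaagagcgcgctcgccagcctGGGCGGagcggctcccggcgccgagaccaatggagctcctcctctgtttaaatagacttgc

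The upstream Cdkn2a window held 1 E2F motif, which 1.96% of 32851 windows of the same length in the table hold, and 2 GC boxes, which 32.7% hold. The downstream Cdkn2a window had neither. The Cdkn2b window held 1 CRE motif, found in 1.55% of all windows. The Ccne1 window held 4 GC boxes and the Cdkn1b window 1. G and C made up 78.4% of the upstream Cdkn2a window and 76.0% of the Ccne1 window, against a median of 52.4% over all windows, and the Cdkn2b window was close to that median at 53.6%. A match of letters is a description of the window and not a measured binding site.

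The libraries held between 28287582 and 40904247 counts on genes, and the KO mESC libraries (34107070 to 40904247) were deeper than the WT mESC libraries (29423089 to 31091857). Mitochondrial genes took 1.09% to 2.33% of the counts of a library. Nfkbia, the targeted gene, was at 34.2, 35.1 and 25.3 CPM (the counts of a gene scaled to the library total, with TMM factors between libraries) in WT clones 1, 2 and 3 and at 10.2, 9.44 and 10.1 CPM in KO clones 1, 2 and 3, a log2 fold change of -1.67 with a standard error (SE) of 0.14. The pluripotency markers Pou5f1, Nanog, Sox2, Zfp42, Esrrb, Dppa4 and Tdgf1 together were at 3435 CPM or more in every mESC library. The KO clones differed among themselves: over 13177 genes the differences from the WT mean of KO clones 1 and 3 had a correlation of 0.87, against 0.52 for clone 2 with either of them. The median log2 fold change of KO against WT over the genes of chromosome 8 was 0.39, against 0.01 over all genes. None of the 9 genes is on chromosome 8. Among the EBs, the library E3 at 48 hr stood apart from the other 5 for Cdkn1a and Cdkn2b, and those results are given with and without it.

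Measured per kilobase of exon, Ccne1 had the highest level of the 9 genes in every group of libraries and Ccnd1 was second. In WT mESCs Ccne1 was at 101 ± 2.22 CPM per kb (SD, n = 3) and Ccnd1 at 36.9 ± 3.14 CPM per kb. Ccnd3 followed at 16.8 ± 1.67, Cdkn1a at 13.0 ± 0.92, Ccne2 at 9.25 ± 0.82 and Cdkn1b at 6.01 ± 0.17 CPM per kb. The lowest levels were those of Cdkn2a (2.69 ± 0.66 CPM per kb), Ccnd2 (1.33 ± 0.49) and Cdkn2b (0.88 ± 0.26). The spreads of Ccnd2 and Cdkn2b overlapped. In KO mESCs Cdkn2a was at 11.5 ± 0.79 CPM per kb, above Ccne2 (8.005 ± 0.45) and Cdkn1b (5.45 ± 1.52), and Ccnd2 was last at 0.66 ± 0.13 CPM per kb. At 96 hr Ccne1 was at 59.7 ± 13.8, Ccnd1 at 34.5 ± 2.85 and Cdkn1a at 24.6 ± 11.3 CPM per kb (SD, n = 6), while Ccnd3, Cdkn1b and Cdkn2a (10.4, 10.1 and 10.04 CPM per kb) did not differ beyond their spread.

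**Figure D1:**
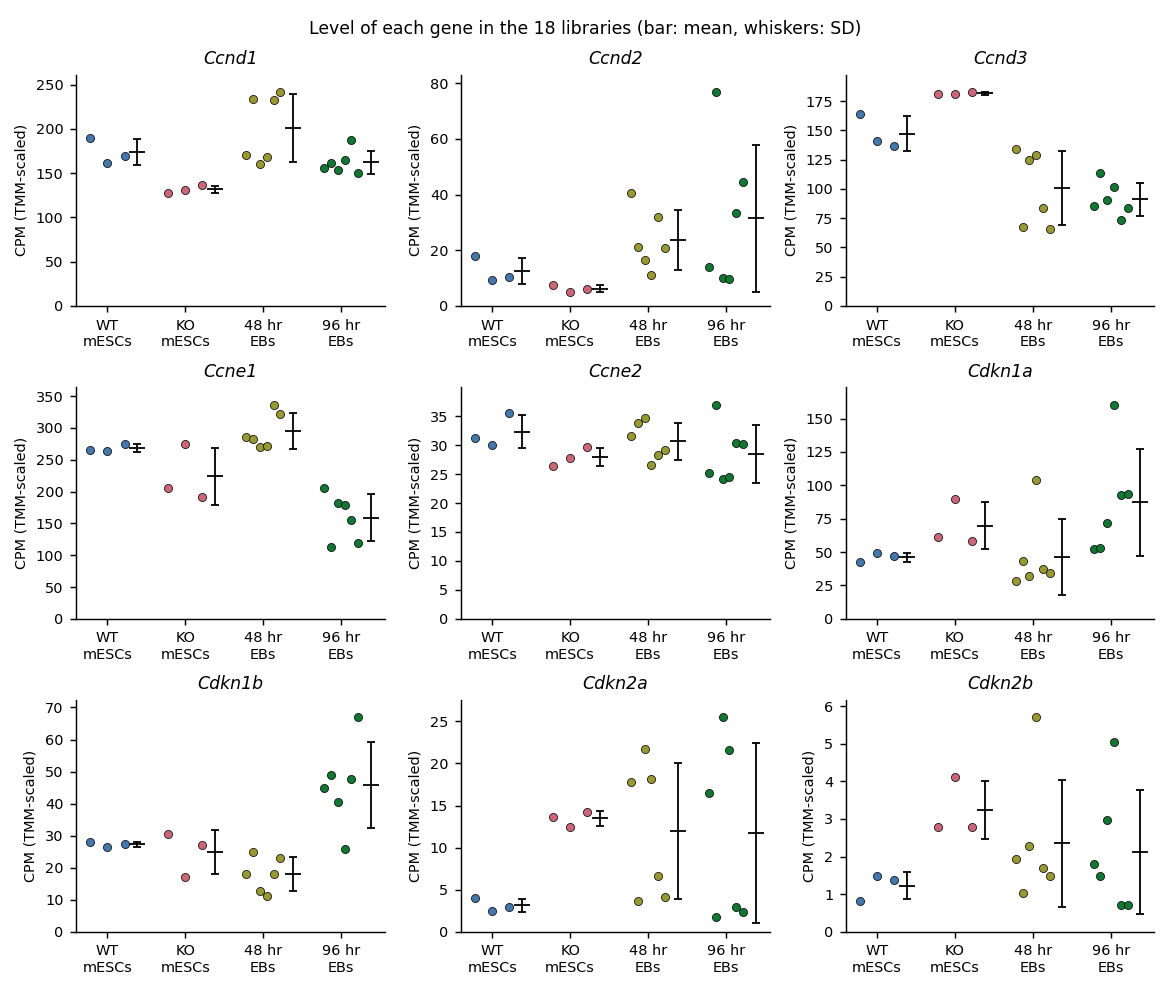
CPM of each gene (vertical axis, linear, from 0, one scale per panel) in the 3 WT and 3 KO mESC libraries and the 6 EB libraries of each stage. Points are libraries, the horizontal bar is the group mean and the whiskers are the SD. Cdkn2a shows 3 KO clones between 12.5 and 14.3 CPM above 3 WT clones between 2.49 and 3.999 CPM, and Cdkn1b at 96 hr lies above all 48 hr libraries.

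Among the D-type cyclins, Ccnd1 made up 67.1% of their summed CPM per kb in WT mESCs (66.2% to 68.3% in the 3 clones), Ccnd3 30.5% (29.5% to 31.3%) and Ccnd2 2.39% (1.95% to 3.11%). In KO mESCs the share of Ccnd1 was 56.7% (55.9% to 57.4%) and that of Ccnd3 42.0% (41.4% to 42.5%), so that the ranges of the 2 genotypes did not overlap for either gene. With the length of the longest transcript in place of the exon union, the shares in KO mESCs changed places, with Ccnd3 at 56.6% and Ccnd1 at 42.3%, since Ccnd3 has an exon union of 8775 bases and a longest transcript of 3858 bases. In 48 hr EBs the Ccnd1 share ran from 64.9% to 84.1% (median 74.2%) and the Ccnd3 share from 12.3% to 28.5% (median 21.3%). Ccne1 held 91.6% of the summed E-type cyclin level in WT mESCs, 91.1% in KO mESCs and 92.6% in 48 hr EBs, and 87.3% (80.0% to 91.5%) in 96 hr EBs.

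**Figure D2:**
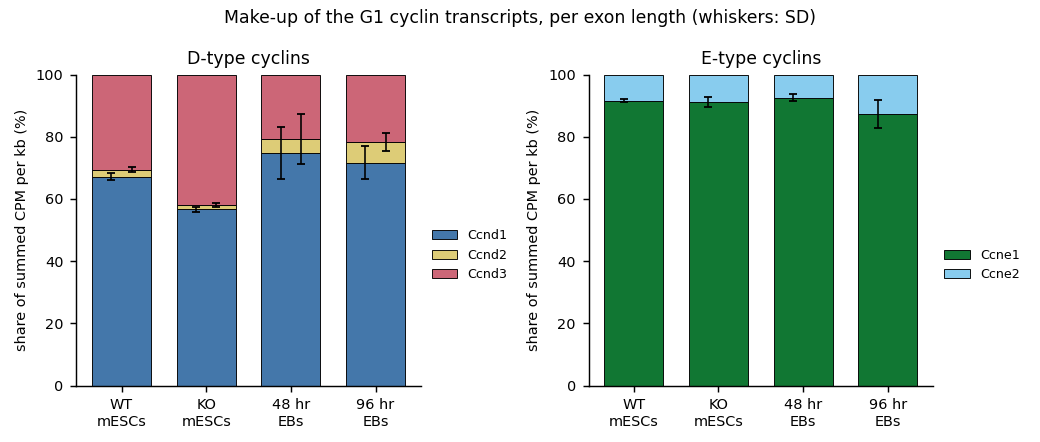
Mean share of each cyclin in the summed CPM per kb of exon of its family (vertical axis, percent) in WT mESCs (n = 3), KO mESCs (n = 3), 48 hr EBs (n = 6) and 96 hr EBs (n = 6). Whiskers are the SD of the share below or above the boundary. Ccnd1 and Ccnd3 hold 67.1% and 30.5% in WT mESCs and 56.7% and 42.0% in KO mESCs, and Ccne1 holds the larger part of the E-type level in every group.

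The comparison of IκBα-KO with IκBα-WT mESCs asks whether loss of IκBα changes these regulators before differentiation. Both Ink4 inhibitors were higher in KO mESCs and Ccnd1 was lower. Cdkn2a rose 4.26-fold, Cdkn2b rose 2.63-fold and Ccnd1 fell 1.32-fold, and the other 6 genes did not pass the test. A gene is called here when its p from the quasi-likelihood test of edgeR, adjusted by Benjamini and Hochberg over all genes tested, is under 0.05. By that rule 3 of the 9 genes were called, 2 higher and 1 lower, while 4.79% of the 21843 genes tested were called, 3.09% higher and 1.69% lower. The 9 genes had a median log2 fold change of -0.14, against 0.01 over all genes.

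Cdkn2a was at 3.999, 2.49 and 2.97 CPM in WT clones 1, 2 and 3 and at 13.7, 12.5 and 14.3 CPM in KO clones 1, 2 and 3. All KO clones lay above all WT clones, with a log2 fold change of 2.09 (SE 0.19, edgeR adjusted p = 0.00489). These levels rest on 76 to 118 counts in each WT library. Cdkn2b, its neighbour, was at 0.81, 1.48 and 1.39 CPM in the WT clones and at 2.78, 4.12 and 2.79 CPM in the KO clones. The groups did not overlap, and KO clone 2 was the highest library. The log2 fold change of Cdkn2b was 1.39 (SE 0.28, edgeR adjusted p = 0.0337).

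Of the Cip/Kip inhibitors, Cdkn1a, the p21 gene and a target of p53, was at 42.6, 49.0 and 46.8 CPM in the WT clones and at 61.1, 89.8 and 58.3 CPM in the KO clones. The KO clones were all above the WT clones and spread more widely, and the log2 fold change of 0.59 (SE 0.15) was not called (edgeR adjusted p = 0.0645). Cdkn1b, the p27 gene, was at 28.1, 26.6 and 27.4 CPM in the WT clones and at 30.4, 17.1 and 27.0 CPM in the KO clones. KO clone 2 was below every other clone, KO clones 1 and 3 were within or above the WT range, and the log2 fold change was -0.14 (SE 0.19, edgeR adjusted p = 0.734).

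Ccnd1 was at 190.0, 161 and 170 CPM in the WT clones and at 128, 131 and 136 CPM in the KO clones. The groups did not overlap, and the KO clones lay closer to each other than the WT clones did. Its log2 fold change was -0.40 (SE 0.08, edgeR adjusted p = 0.0335). Ccnd3 had the opposite sign, with 164, 141 and 137 CPM in the WT clones and 181, 181 and 183 CPM in the KO clones (log2 fold change 0.30, SE 0.08, edgeR adjusted p = 0.0796). Ccnd2 was at 17.8, 9.39 and 10.46 CPM in the WT clones and at 7.43, 5.05 and 6.02 CPM in the KO clones (log2 fold change -1.03, SE 0.27, edgeR adjusted p = 0.0648). Neither gene was called, although the genotypes did not overlap in either. The E-type cyclins differed less: Ccne1 was at 265, 264 and 275 CPM in the WT clones and at 206, 275 and 192 CPM in the KO clones, where clone 2 lay within the WT range. Its log2 fold change was -0.26 (SE 0.12, edgeR adjusted p = 0.243), and that of Ccne2 was -0.21 (SE 0.10, edgeR adjusted p = 0.253). In all, the ranges of the genotypes did not overlap for 7 of the 9 genes (all but Ccne1 and Cdkn1b), as for 28.9% of the genes tested.

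With 3 clones a genotype, these calls depended on single clones. Without WT clone 2 no gene of the 9 was called and Cdkn2a had an edgeR adjusted p of 0.0633. That fit called 0 of all 21342 genes tested, against 676 higher and 370 lower with all clones. Without WT clone 1, WT clone 3, KO clone 1 or KO clone 3 the call of Cdkn2a was kept (adjusted p 0.0203, 0.0481, 0.0224 and 0.0296) and those of Cdkn2b and Ccnd1 were lost (adjusted p 0.0707 to 0.142 and 0.0776 to 0.138). Without KO clone 2, 6 genes were called, namely Cdkn2a, Cdkn2b, Ccnd1, Ccnd3, Cdkn1a and Ccne1 (log2 fold change of Ccne1 -0.43). Over all genes, the fit without KO clone 2 called 2209 of 21001 higher and 1527 lower. Those without WT clone 1, WT clone 3, KO clone 1 or KO clone 3 called 24 to 271 higher and 10 to 110 lower. The number of calls thus moved over all genes and not only among the 9. In none of the fits without a clone did Cdkn2a fall below a log2 fold change of 1.94. With all 18 libraries in 1 fit, whose spread includes EB groups of mixed genotype, none of the 9 was called (Cdkn2a adjusted p = 0.508), and with limma on the normalized values Cdkn2a alone was called (adjusted p = 0.0199).

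**Figure D3:**
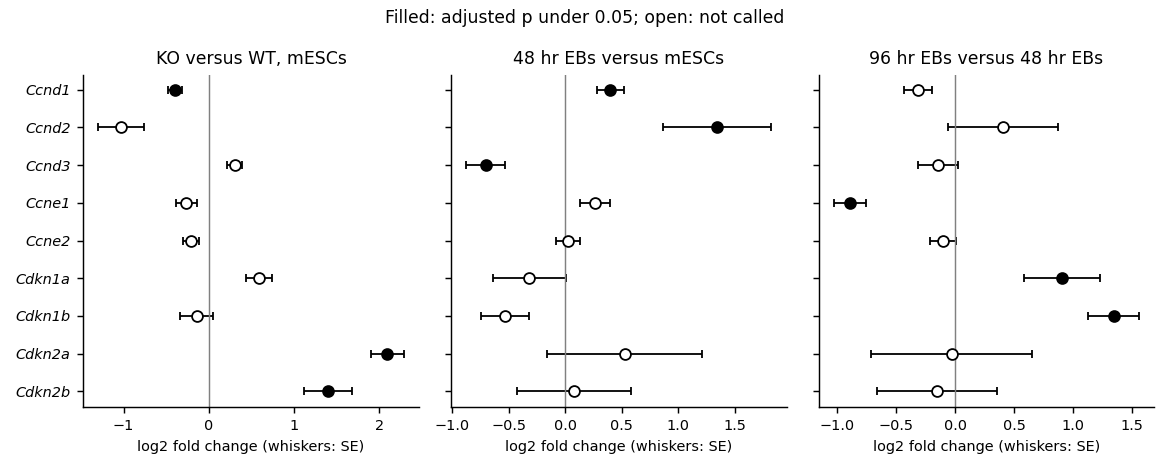
Log2 fold change of each gene (horizontal axis, whiskers SE) for KO against WT mESCs (3 against 3 libraries), 48 hr EBs against mESCs and 96 hr EBs against 48 hr EBs (6 against 6 libraries each). Filled points have an edgeR adjusted p under 0.05. Cdkn2a (2.09) and Cdkn2b (1.39) are the highest points of the first panel, and Cdkn1b (1.35) and Ccne1 (-0.89) lie at the ends of the last.

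Around these genes, the partners and substrates of the G1 complexes were mostly not called in KO mESCs, as was the case for most genes. Over all genes tested, 4.79% were called, 3.09% higher and 1.69% lower. None of the 3 kinases Cdk2, Cdk4 and Cdk6, the 10 E2F and DP factors, the 13 cyclins and regulators of the S, G2 and M phases, the 11 mitogen and Myc inputs or the 7 Smad and FoxO inputs was called. Cdkn1c, the third Cip/Kip inhibitor, fell from 51.9 to 16.5 CPM (log2 fold change -1.65, edgeR adjusted p = 0.0171). The other 7 called genes of these lists rose: the pocket protein Rbl2 (0.77), 3 of 23 replication genes, Gins2 (0.72), Mcm5 (0.38) and Cdt1 (0.32), the F-box gene Fbxo31 (0.63), and Gdf15 (1.37) and Sesn1 (0.64), 2 of 16 genes of the p53 pathway. Of the 8 called genes, 6 are on chromosome 8, whose genes were higher as a whole in KO clones, and Cdkn1c (chromosome 7) and Sesn1 (chromosome 10) are not. With an offset for the median of each 10 Mb window in each library, 2 of the 8, Cdkn1c and Sesn1, were still called, and among the 9 G1 genes Cdkn2a (log2 fold change 2.02), Cdkn2b (1.32) and Ccnd1 (-0.42) were called as before and Cdkn1a (0.62) was called as well. Early epiblast markers moved with the genotype too, with Fgf5, Pou3f1 and Dnmt3b lower in KO mESCs (3 of 4 called) and a summed level of the 4 genes of 617 CPM or more in the WT clones and 450.2 CPM or less in the KO clones. Of the endoderm markers, all 4 tested had a log2 fold change above 0 (median 2.64), and none was called. The summed endoderm level ran from 2.87 to 29.3 CPM in the KO clones and from 2.64 to 3.66 CPM in the WT clones. Zfp42 and Sox1, both on chromosome 8, were called higher, but neither was called with the window offset. Col3a1, at most 0.56 CPM in any mESC library, was called lower. The part of these differences between cells in the results above was not tested.

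The comparison of 48 hr EBs with mESCs asks which G1 regulators change between these 2 cultures. Per the study's methods, the basal medium, its supplements and the move to suspension changed along with LIF withdrawal. Their parts cannot be told apart here. Ccnd1 rose 1.32-fold and Ccnd2 2.54-fold, while Ccnd3 fell 1.63-fold. The E-type cyclins and the 4 inhibitors were not called. Thus 3 of 9 genes were called, 2 higher and 1 lower, and 27.9% of the 25318 genes tested were called, 14.9% higher and 13.0% lower, so the share of called genes among the 9 was near that of all genes. In bulk RNA, a change in the share of cells with a transcript and a change in its amount per cell cannot be told apart. Markers of cell state moved with the stage. Of 7 pluripotency markers, 5 were called lower at 48 hr, and all 4 early epiblast markers were called higher. The summed early epiblast level ran from 376 to 971 CPM in mESCs and from 823 to 2489 CPM at 48 hr. The part of changed cell states in the results below was not tested. The comparison of 48 hr EBs with mESCs shares its 48 hr libraries with the next one.

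Ccnd3 ran from 137 to 183 CPM in the 6 mESC libraries (median 172) and from 66.2 to 134 CPM at 48 hr (median 104). It was the only one of the 9 genes whose ranges did not overlap, as was the case for 16.7% of all genes, and its log2 fold change was -0.71 (SE 0.17, edgeR adjusted p = 0.00456). Ccnd1 ran from 128 to 190.0 CPM in mESCs (median 149) and from 160.3 to 242 CPM at 48 hr (median 202), with a log2 fold change of 0.40 (SE 0.12, edgeR adjusted p = 0.0172). The ranges overlapped, and 3 libraries at 48 hr (E14, H7 and H9, 233 to 242 CPM) lay above every mESC library. Ccnd2 ran from 5.05 to 17.8 CPM in mESCs (median 8.41) and from 11.1 to 40.7 CPM at 48 hr (median 21.05), with a log2 fold change of 1.35 (SE 0.48, edgeR adjusted p = 0.0436). The highest 48 hr library was D4 and the lowest E3.

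The 4 inhibitors overlapped between mESCs and 48 hr EBs. Cdkn1b ran from 17.1 to 30.4 CPM in mESCs and from 11.2 to 24.96 CPM at 48 hr (log2 fold change -0.53, SE 0.21, edgeR adjusted p = 0.0692). Cdkn1a was between 42.6 and 89.8 CPM in mESCs, and at 48 hr 5 libraries were between 28.2 and 43.5 CPM and E3 was at 104 CPM. Its log2 fold change was -0.32 (SE 0.32, edgeR adjusted p = 0.510). Cdkn2a ran from 2.49 to 14.3 CPM in mESCs and from 3.62 to 21.8 CPM at 48 hr (log2 fold change 0.53, SE 0.69, edgeR adjusted p = 0.622). Cdkn2b ran from 0.81 to 4.12 CPM in mESCs and from 1.03 to 5.70 CPM at 48 hr (log2 fold change 0.08, SE 0.51). Ccne1 (log2 fold change 0.26, SE 0.13, edgeR adjusted p = 0.164) and Ccne2 (0.03, SE 0.11) were not called.

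Ccnd3 was called without any one library. Ccnd1 was not called without KO clone 1, H7 or H9 (edgeR adjusted p 0.0593, 0.0596 and 0.0617). Ccnd2 was lost without WT clone 2 or 3, any KO clone, D4, E14, H7 or H9 (adjusted p 0.0574 to 0.110), and without KO clone 1 or H7 only Ccnd3 was left. Ccnd2 was also lost with a minimum of 1 count (adjusted p = 0.0812) and with limma (adjusted p = 0.0639). Without E3, Cdkn1a was lower at 48 hr (log2 fold change -0.73, edgeR adjusted p = 0.0435) and Cdkn2b had a log2 fold change of -0.41 (adjusted p = 0.581), and without KO clone 2, E14 or H9 Cdkn1b was lower (log2 fold change -0.63 to -0.65, adjusted p 0.0331 to 0.0440). Cdkn1b was also called lower by the DESeq2 Wald test (adjusted p = 0.0364). The same held for the filterByExpr filter of edgeR (edgeR adjusted p = 0.0455) and the 12 libraries compared alone (edgeR adjusted p = 0.0430).

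The comparison of 96 hr with 48 hr EBs asks what changes as EBs begin to form germ layers. Ccne1 fell 1.86-fold, and the Cip/Kip inhibitors rose, Cdkn1b 2.54-fold and Cdkn1a 1.88-fold. The D-type cyclins, Ccne2 and the Ink4 inhibitors were not called. Thus 3 of 9 genes were called, 2 higher and 1 lower, and 27.7% of the 25318 genes were called, 13.9% higher and 13.8% lower, so the share among the 9 was again near that of all genes. The markers of the primitive streak and mesoderm (T, Mixl1, Eomes, Mesp1, Kdr and Gsc) moved with the stage, all 6 of them higher at 96 hr, and their summed level ran from 8.93 to 72.3 CPM at 48 hr and from 14.7 to 1080.3 CPM at 96 hr. The part of changed cell types in the results below was not tested.

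Cdkn1b was at 18.1, 24.96, 12.8, 11.2, 17.9 and 23.1 CPM at 48 hr in D4, E14, E2, E3, H7 and H9 and at 44.9, 49.0, 40.5, 25.9, 47.6 and 66.9 CPM at 96 hr in the same order. All 96 hr libraries lay above all 48 hr libraries, and each of the 6 codes rose, by 0.97 to 1.66 on the log2 scale. The fitted log2 fold change was 1.35 (SE 0.22, edgeR adjusted p = 0.000314). Ccne1 was at 286, 282, 271, 271, 337 and 323 CPM at 48 hr and at 205, 113, 181, 179, 155 and 120 CPM at 96 hr. Here too the stages did not overlap and every code fell, with a fitted log2 fold change of -0.89 (SE 0.14, edgeR adjusted p = 0.000207). Cdkn1b and Ccne1 were the 2 of 9 genes without overlap, as were 8.94% of all genes.

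Cdkn1a was at 28.2, 43.5, 32.0, 104, 37.0 and 34.4 CPM at 48 hr and at 52.3, 53.2, 71.8, 161, 92.7 and 93.7 CPM at 96 hr. It rose in each of the 6 codes, by 0.29 to 1.45 on the log2 scale, but the stages overlapped because E3 at 48 hr was above 5 of the 96 hr libraries. The fitted log2 fold change was 0.91 (SE 0.32, edgeR adjusted p = 0.0431). With the column code as a block it was 0.99 (SE 0.15, edgeR adjusted p = 0.00208). Ccnd1 was at 171, 234, 160.3, 168, 233 and 242 CPM at 48 hr and at 156, 162, 154, 164, 187 and 150.2 CPM at 96 hr. It was lower at 96 hr in all 6 codes, and its log2 fold change of -0.31 (SE 0.12, edgeR adjusted p = 0.0590) was not called. With the column code as a block it was called, at -0.26 (edgeR adjusted p = 0.0408), which made 4 called genes.

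Ccnd2 rose in 3 codes and fell in 3, and its range at 96 hr, from 9.81 to 77.0 CPM, was the widest of the 9 genes in proportion to its lowest value apart from that of Cdkn2a (1.70 to 25.5 CPM). The log2 fold changes of Ccnd2 (0.41, SE 0.47), Ccnd3 (-0.14, SE 0.17), Ccne2 (-0.10, SE 0.11), Cdkn2a (-0.03, SE 0.68) and Cdkn2b (-0.15, SE 0.51) had edgeR adjusted p-values between 0.507 and 0.980. Cdkn1b and Ccne1 were called without any one library. Cdkn1a was lost without D4, E14, E2, H7 or H9 at 48 hr or without E3, H7 or H9 at 96 hr (edgeR adjusted p 0.0638 to 0.108), with the 12 libraries compared alone (0.0812) and with a minimum of 1 count (0.0708). Ccnd1 was called without E2 or E3 at 48 hr or without H7 at 96 hr (edgeR adjusted p 0.0336 to 0.0476). With both E3 libraries left out, a choice made after seeing the data, Cdkn1a had a log2 fold change of 1.05 (edgeR adjusted p = 0.00178) and Ccnd1 was called as well (-0.36, edgeR adjusted p = 0.0438).

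**Figure D4:**
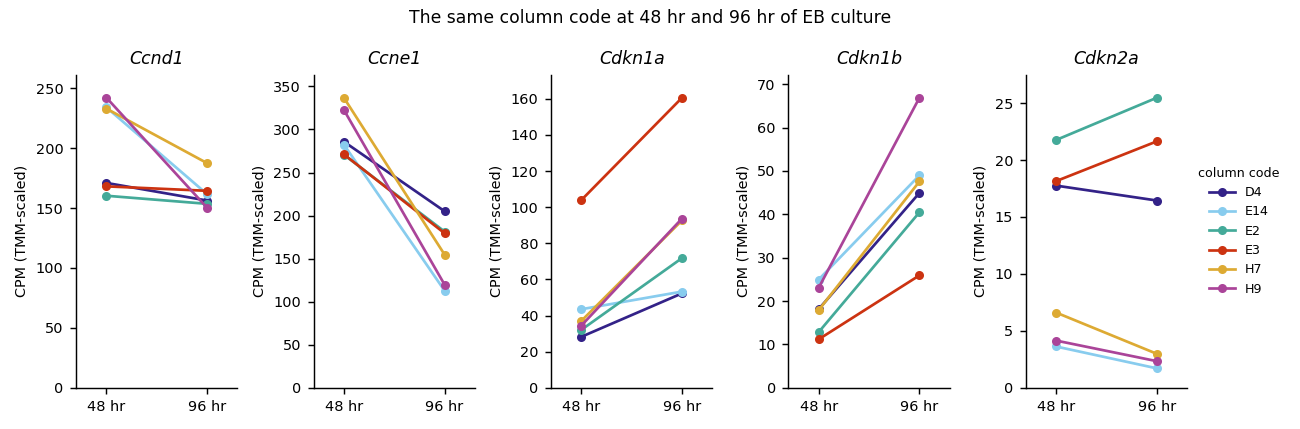
CPM (vertical axis, linear, from 0) of Ccnd1, Ccne1, Cdkn1a, Cdkn1b and Cdkn2a at 48 hr and 96 hr, with a line for each of the 6 column codes. Ccnd1 and Ccne1 fall and Cdkn1a and Cdkn1b rise in all 6 codes, and Cdkn2a keeps each code in the same one of 2 ranges, above 16 CPM or below 7 CPM.

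The replication genes that E2F factors are known to drive followed the stages. Of 23 such genes, 11 rose and none fell from mESCs to 48 hr, while 14.9% of all genes were called higher and 13.0% lower. Among the 11 were Gins2 (log2 fold change 0.84), a part of the replicative helicase, and Tk1 (0.78), which makes thymidine monophosphate. The median of the 23 was 0.24, against 0.00 over all genes. From 48 hr to 96 hr 17 of the 23 fell and none rose, while 13.8% of all genes were called lower and 13.9% higher. Ung (-0.69), which removes uracil from DNA, and Tk1 (-0.67) had the largest falls, and the median was -0.35 against -0.03. With the 12 libraries compared alone, 13 rose at 48 hr and 13 fell at 96 hr. Without both E3 libraries 12 rose at 48 hr and 19 fell at 96 hr. At 48 hr the pocket proteins Rbl1 (-0.75) and Rb1 (-0.75) fell, the factors E2f4 (0.67), E2f7 (0.63), E2f8 and Tfdp1 rose, and Cdk4, the partner of the D-type cyclins, rose from 434 to 626 CPM (0.53). At 96 hr Rbl1 rose (0.40), and E2f8 (-0.66), Tfdp2 (-0.56) and Tfdp1 fell. Of the 10 E2F and DP factors, 4 rose and 0 fell at 48 hr, against 6 and 1 without both E3 libraries, and 0 rose and 3 fell at 96 hr, against 3 and 4 with the column code as a block. Skp2, which marks Cdkn1b protein for degradation, fell from 105 to 79.5 CPM at 96 hr (-0.39) and Ccnf fell by 0.35 on the log2 scale. Of the 12 genes for turnover and assembly of the G1 regulators, 6 fell and none rose at 96 hr. With the 12 libraries compared alone 4 of these genes fell and none rose.

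Inputs to the D-type cyclins and inhibitors changed in both directions. At 48 hr 3 of 11 mitogen and Myc inputs rose and 2 fell, namely the immediate early genes Fos (-1.91) and Egr1 (-0.94). At 96 hr 6 rose and 1 fell, and Fos (2.20) and Jun (1.98) had the largest changes. Of 16 genes of the p53 pathway, 3 rose and 2 fell at 48 hr, with Pmaip1 at 1.246 and Mdm4, an inhibitor of p53, at -1.08, and 2 rose (Btg2, 0.98, and Bbc3, 0.73) and 2 fell at 96 hr. Over all genes, 27.9% were called at 48 hr and 27.7% at 96 hr. The p53 counts turned on the libraries and the fit: without both E3 libraries 3 rose and 7 fell at 48 hr and 3 rose and 6 fell at 96 hr, with the 12 libraries compared alone 4 rose and 4 fell at 48 hr, and with the code block 3 rose and 5 fell at 96 hr. Of 7 Smad and FoxO inputs, 3 rose at 96 hr, Smad3 (1.11), Foxo3 (0.66) and Smad4, and 1 fell, whereas 1 rose (Zbtb17, 0.64) and 1 fell at 48 hr (2 fell without both E3 libraries). Cdc25a, the phosphatase that activates Cdk2, rose at 48 hr (0.47) and fell at 96 hr (-0.35), Cdc25c fell at 48 hr (-0.60) and Cdk1 fell at 96 hr (-0.34). Of the 13 cyclins and regulators of S, G2 and M, 2 rose and 4 fell at 48 hr, and 1 rose and 5 fell at 96 hr. At 96 hr 4 of them rose and 5 fell with the code block, and 2 rose and 5 fell without both E3 libraries. Cdkn1c, Cdkn2c and Cdkn2d were not called in either stage comparison.

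**Figure D5:**
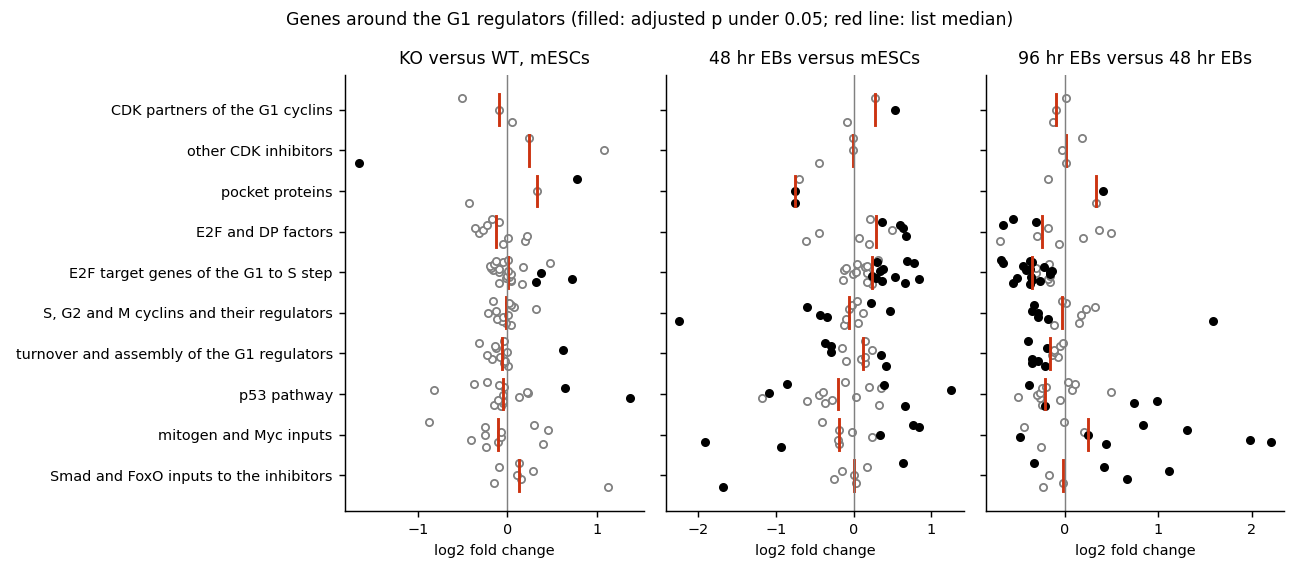
Log2 fold change (horizontal axis, one scale per panel) of every gene of 10 lists around the G1 regulators in the 3 comparisons. Filled points have an edgeR adjusted p under 0.05, open points do not, and red lines are list medians. The 23 E2F target genes include 11 filled points above 0 at 48 hr and 17 below 0 at 96 hr.

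Across the 18 libraries, which share clones and stages, the 9 genes varied with different partners. Over log2 CPM, Cdkn2a and Cdkn2b had the highest correlation of any pair of the 9 (Pearson r 0.78), and Ccne1 and Cdkn1b the lowest (-0.79), followed by Ccnd1 and Ccnd3 (-0.68). Among 13177 genes with a mean of at least 50 counts, those most like each gene were Champ1 (0.94) and Ccdc85a (0.93) for Ccnd1, Ska2 and Dyrk1a (both 0.91) for Ccnd2, and Nid1 (0.98) and Ceacam1 (0.96) for Ccnd3. For Ccne1 they were Dkc1 (0.97) and Zfp493 (0.96), and for Ccne2 AC132253.6 (0.79) and Myl6 (0.76). For Cdkn1a they were Adgrb2 (0.91) and Vat1 (0.90), for Cdkn1b Rnf128 (0.96) and Naglu (0.95), for Cdkn2a Dda1 (0.96) and Tmem229b (0.95), and for Cdkn2b Trappc2l and 4930502E18Rik (both 0.88). Of these similar genes, Ccdc85a, Ska2, Vat1 and Naglu are on chromosome 11. Dda1, Trappc2l and Champ1 are on chromosome 8, and Dkc1, Rnf128 and 4930502E18Rik are on chromosome X.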

How the data were processed

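RNA-seq of 18 libraries was analysed from tables of the whole series. Per the study's methods, the authors trimmed reads with Trim Galore 0.6.6, aligned them with STAR 2.7.8 to GRCm38 (Ensembl 102), ran featureCounts over exons on the uniquely mapped reads, and deposited the resulting counts of 55487 genes as whole numbers without normalization, so reads shared by near-identical genes are missing. The authors also deposited log2 values of 25318 genes (variance-stabilizing transformation of DESeq2 1.38.3), used in an alternative only. Positions and lengths came from GENCODE M21 on GRCm38.

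A gene entered a fit when its counts there summed to 10 or more, and was tested with edgeR 4.0.16 (TMM, robust quasi-likelihood test, two-sided, Benjamini-Hochberg) in R 4.3.3. KO against WT used the 6 mESC libraries. Stages used all 18 libraries with stage as the only term. SE is the absolute log2 fold change over the square root of F, and the prior count of log2 CPM was 2. Clones were labelled as independent replicates. Depth was at least 28287582 counts, so for genes with many counts the spread between clones limits precision. No pair of libraries within a group was a duplicate (chi-square per degree of freedom at least 5.47). Pairs from different groups were not checked. The fits were tested on simulated counts.

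EB column codes recur at both stages and were used as a block. Deviations from the stage means of the same code at 48 hr and 96 hr had correlations of 0.40 to 0.73 over 13177 genes. The 48 hr library of E14 was most like another code at 96 hr. Each stage mean holds both genotypes, so libraries of the same genotype can correlate too, and these values do not settle the pairing. Where that block changed a call of the 9 genes or a list's count by a large factor, its value stands beside the result. The genes and lists were chosen with earlier results of these data known. Named are the 9 genes, Nfkbia in mESCs, up to 2 called genes of each list and comparison with the largest change and a mean of at least 50 counts, and the 2 genes most like each of the 9. Other list genes named in the report (Cdt1, E2f8 and Tfdp1 at 48 hr, Tfdp1 at 96 hr, Smad4, and the marker genes called in KO mESCs) were named after their values were seen. Alternatives were DESeq2 1.42.0 (size factors or Wald test), limma 3.58.1, other filters, each library left out, blocks, window offsets, other sets of libraries and the longest transcript.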

Additional observations from a re-analysis of the deposited data

Results flagged for a closer look

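In 18 groups of 6 EB libraries (9 genes at 2 stages), 2 libraries stood apart from the other 5 of their stage by Dixon's ratio, a test that flags about 1 in 20 groups by chance. Both were E3 at 48 hr. Cdkn1a was at 104 CPM in E3, and the next library was at 43.5 CPM. Cdkn2b was at 5.70 CPM in E3, and the next library was at 2.29 CPM. E3 was also the highest library for both genes at 96 hr (161 and 5.04 CPM), where its gap was under the limit. Of the 16 genes of the p53 pathway list, 10 were highest in E3 among the 48 hr libraries and 13 among the 96 hr libraries, and their summed level in E3 was 3083 CPM at 48 hr (2260 to 2423 CPM in the other 5 libraries) and 3064 CPM at 96 hr (1705 to 2294 CPM). The share of all genes that were highest in E3 was not counted. These counts therefore do not show whether the trait is particular to the p53 pathway list. The part of the p53 pathway in the level of Cdkn1a was not tested.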

How the results depend on the processing

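Against 3 called genes of 9 for KO against WT mESCs, 6 were called by the DESeq2 Wald test, 1 by limma on the normalized values (Cdkn2a) and 0 with all 18 libraries in 1 fit, where Cdkn2a had an adjusted p of 0.508. That fit takes its spread from EB groups that hold both genotypes and called 1 gene of 25318. Leaving out a clone gave 0 to 6. Calls over all genes moved too, from 0 without WT clone 2 to 2209 higher and 1527 lower without KO clone 2. The replicate number of the mESC clones as a block gave 4 (Ccnd2 and Cdkn1a gained, Ccnd1 lost with an edgeR adjusted p of 0.0584). The numbers do not pair the clones, with correlations of deviations from the genotype means of -0.12, -0.01 and -0.03. For 48 hr EBs against mESCs, leaving out a library gave 1 to 4 called genes against 3, and for 96 hr against 48 hr 2 to 4 against 3. The code block at 96 hr gave 4 and changed no call of the 9 genes but that of Ccnd1. Over the alternatives, signs turned only in values that were not called: Cdkn1b in KO mESCs (-0.32 to 0.074 without a clone), Ccne2 (-0.031 to 0.063) and Cdkn2b (-0.41 to 0.35) at 48 hr, and Ccnd2 (-0.056 to 0.66), Cdkn2a (-0.41 to 0.24) and Cdkn2b (-0.62 to 0.33) at 96 hr. Cdkn2a at 96 hr was 0.014 with a minimum of 1 count, and Cdkn2b at 48 hr was -0.41 without both E3 libraries, an alternative added after seeing the data. Per kb of the longest transcript in place of the exon union, levels in WT mESCs moved to 46.4 (Ccnd1), 1.98 (Ccnd2), 38.2 (Ccnd3), 134 (Ccne1), 10.8 (Ccne2), 22.2 (Cdkn1a) and 3.53 (Cdkn2a) CPM per kb. Cdkn2b, at 0.81 CPM in the lowest WT clone, is the gene most limited by depth.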

Other observations

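Some genes fell into separate ranges within an EB stage. Their values are given by column code, since the labels do not tie the codes to a genotype, and no average or test was made of them. At 48 hr Cdkn2a was at 17.8 CPM in D4, 3.62 in E14, 21.8 in E2, 18.2 in E3, 6.61 in H7 and 4.15 CPM in H9. At 96 hr it was at 16.4 CPM in D4, 1.70 in E14, 25.5 in E2, 21.6 in E3, 2.98 in H7 and 2.34 CPM in H9, so each code kept to the higher or the lower range of its stage. Ccnd3 at 48 hr was at 134 CPM in D4, 67.5 in E14, 125 in E2, 129 in E3, 83.5 in H7 and 66.2 CPM in H9, in 2 ranges as well, and at 96 hr it was at 85.4, 113, 90.4, 101.7, 73.2 and 83.8 CPM in the same order, without such a gap. Ccnd2 at 96 hr was at 13.9 CPM in D4, 77.0 in E14, 10.2 in E2, 9.81 in E3, 33.5 in H7 and 44.6 CPM in H9.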
